A study of Homo sapiens with 9 samples.

Results

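A549 is an established human lung adenocarcinoma cell line. The cells received 1 of 3 plasmids by transfection, and RNA of 9 libraries was counted per gene: 3 libraries with a control plasmid, 3 with a plasmid that overexpresses the long noncoding RNA (lncRNA) LINC00996 and 3 with a plasmid that overexpresses the lncRNA AP001189.3. The comparison described here set the 6 libraries with an lncRNA plasmid, each plasmid weighted equally, against the 3 control libraries, so all 9 of the 9 libraries of the series entered it. Its members of interest are the genes that differed from control in the same direction with both plasmids. A gene was called shared when its adjusted p was under 0.05 in both single comparisons, LINC00996 against control and AP001189.3 against control, with the same sign. The overexpressed lncRNAs themselves were left out. By this rule 211 of 16560 genes tested (1.27%) were shared, 163 of them higher and 48 lower than control. Both single comparisons used the same 3 control libraries. A gene whose level was unusual in those libraries was therefore called shared as well, and a response to both plasmids and a difference of the control libraries cannot be told apart in this design.

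Every group was transfected, and cells without plasmid were not analysed here. The labels name the control plasmid PC3.1, PC3.2 or PC3.3 in the respective control libraries, and neither the labels nor the study's methods give the promoter that drives the inserts or the time after transfection. Nothing in the labels says that replicates came from separate cultures, so p-values measure the spread between these samples, which may be technical. As background, a transfected plasmid is foreign DNA, and mammalian cells can answer DNA in the cytosol through cGAS and STING with interferon genes. A plasmid with an insert differs from a control plasmid in its length and sequence as well as in the RNA that it yields. Several groups of genes recur below. The respiratory chain is built from subunits of the nuclear and of the mitochondrial genome, hnRNP proteins coat newly made RNA and guide its splicing, and mucins and protease inhibitors are made by airway epithelium for its surface.

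The overexpressed RNAs were found where the labels put them. LINC00996 (chromosome 7) stood at 287, 278 and 322 CPM (counts scaled to library size) in its own group and at 0.230 to 0.530 CPM in the other 6 libraries, and AP001189.3 (chromosome 11) at 98.2, 126 and 144 CPM in its own group with at most 2 counts in any other library. Library totals ranged from 15272450 to 18125447 counts. CDKN2A and CDKN2B, which A549 lacks, had 0 counts in all 9 libraries, and the prostate marker KLK3 had 0 counts in the control libraries, whose titles share the name PC3 with a prostate line. The summed level of 12 A549 and epithelial markers was 14639 to 14753 CPM with the control plasmid, 19776 to 23101 CPM with LINC00996 and 16022 to 16753 CPM with AP001189.3. ALDH1A1, ALDH3A1 and KRT8 carried most of that rise. AKR1B10 rose with LINC00996 only, from 718 to 1373 CPM, and stood at 703 CPM with AP001189.3. The epithelial markers CDH1 and KRT19 were called lower with LINC00996, from 318 to 171 CPM and from 297 to 225 CPM. One library stood apart: LINC00996 replicate 1 differed from the other LINC00996 replicates by a chi-square of 21.6 and 32.4 per gene, where all other replicate pairs gave 2.24 to 7.11. Relative gene levels, set against the average library, went with transcript length, with Spearman's rho across 16552 genes of 0.136, 0.200 and 0.147 in the control libraries and of -0.275 to 0.0300 in the plasmid libraries. The control libraries thus lay above all 6 plasmid libraries on this measure. For GC content the same rho was -0.00769, -0.244 and -0.28 in the control libraries and 0.206 to 0.353 in the AP001189.3 libraries. It was 0.434, -0.242 and -0.423 in the LINC00996 libraries. All AP001189.3 libraries thus lay above all control libraries on this measure. Genes are not independent replicates, and the part of these differences in the results below was not tested.

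**Figure D1:**
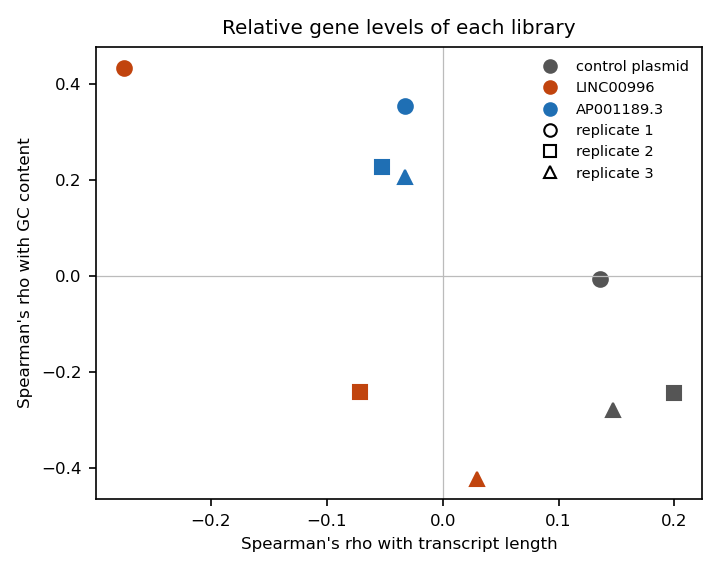
Spearman's rho across 16552 genes between the level of a gene, set against the average library, and its transcript length (x axis) or GC content (y axis), 1 point per library, with colour for the plasmid group and shape for the replicate. The 3 control libraries lie to the right of all plasmid libraries, and LINC00996 replicate 1 lies far from LINC00996 replicates 2 and 3.

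The average of both plasmids against control called 2508 genes, 15.1% of those tested (edgeR, quasi-likelihood test, p adjusted by Benjamini and Hochberg over all genes tested). Higher than control were 1213 (7.32%) and lower were 1295 (7.82%). LINC00996 alone against control called 4659 genes (28.1%) and AP001189.3 alone 437 (2.64%), of which 2.08% of all genes were higher and 0.562% lower. Of the 2508 genes, 2101 (83.8%) were called with LINC00996 only, 67 with AP001189.3 only, 111 in neither single comparison and 211 (8.41%) in both with the same sign, and the rest in both with opposite signs. The AP001189.3 count rested on single libraries, from 76 without control replicate 3 to 3291 without LINC00996 replicate 1, and fits of each plasmid on its own 6 libraries called 3588 genes with LINC00996 and 3180 with AP001189.3. In 334 genes the log2 fold changes of the plasmids had opposite signs, and 1356 were also called between the plasmids. A fit that treated the 6 plasmid libraries as 1 group without a plasmid term, so that the gap between the plasmids counted as spread, called 64 genes, 52 higher and 12 lower. Of these, 51 were shared and higher, 12 shared and lower, and the remaining gene was RPL8, a ribosomal protein gene named here after its values were seen. MUC16, AHCYL2, IGFBP1, MT-CO3, RPL22, HSPE1 and ALDH1A1, described below, were not among the 64.

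The 163 shared higher genes made up 0.984% of the genes tested and the 48 shared lower genes 0.29%. The median log2 fold change of the shared higher genes was 0.80 with LINC00996 and 0.64 with AP001189.3, and that of the shared lower genes was -0.59 and -0.57, beside medians of 0.01 and -0.00 over all genes tested. At least a doubling (a log2 fold change of 1) with each plasmid was reached by 29 higher genes, and the matching fall by 8. The 6 plasmid values lay above all 3 control values in 159 of the 163 and below them in 47 of the 48, against 1207 (7.29%) and 1043 (6.3%) of all genes tested, and since the rule used the same values nothing is read from these counts. The members nearest to the threshold were HNRNPA1 and the pseudogene UQCRFS1P1, with adjusted p of 0.0496 for AP001189.3 in edgeR's test, and the nearest outside it were LGALS1 and BORCS5 with 0.0514. The count of shared genes rested on single libraries. It was 135, 46 and 35 without control replicate 1, 2 and 3, 60, 43 and 60 without AP001189.3 replicate 1, 2 and 3, 469 without LINC00996 replicate 3, and 1157 without LINC00996 replicate 1. The average contrast gave 1418, 1151 and 1307 calls without control replicate 1, 2 and 3, 1643 without AP001189.3 replicate 2 and 4191 without LINC00996 replicate 1. Of the 211, 9 higher and 4 lower genes passed the filter on low counts only through the libraries where they were high. A set of 28 genes, 24 higher and 4 lower, stayed shared whichever of the 9 libraries was left out. All 211 kept both signs in each of the 25 alternatives in which they were tested. Alternatives that changed only the threshold or the adjustment reused the main fit, so their signs could not differ. The rest reused the same libraries for genes chosen by these signs, so nothing is read from this count.

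**Figure D2:**
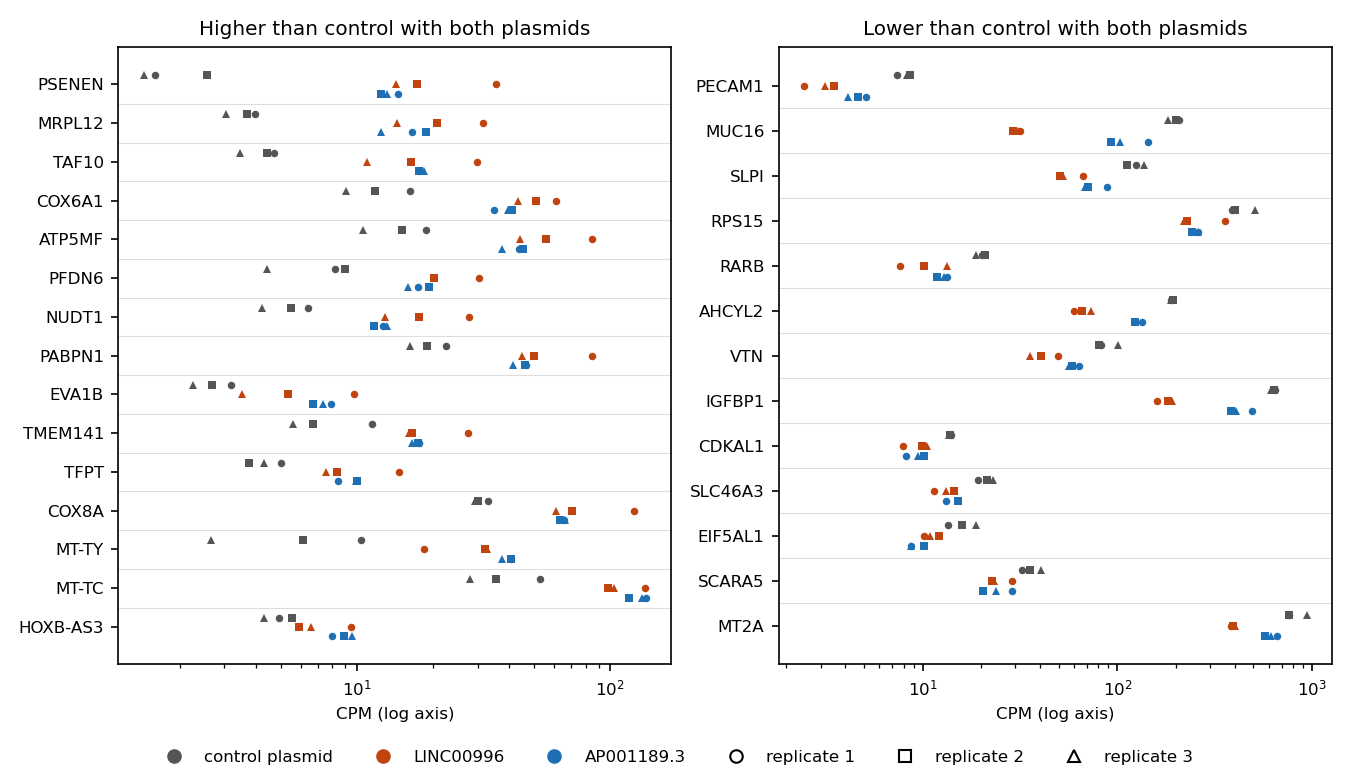
Level in CPM (log x axis) of leading shared genes in each of the 9 libraries, with genes higher than control on the left and lower on the right, colour for the plasmid group and shape for the replicate. In every gene shown the 6 plasmid libraries lie on 1 side of the 3 control libraries, and LINC00996 replicate 1 is the highest library in all 12 protein-coding genes on the left.

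PSENEN had the largest change of the protein-coding genes that were named by rule. It encodes a small subunit of gamma-secretase, the membrane protease that cleaves NOTCH receptors and the amyloid precursor protein. PSENEN (ENSG00000205155, chromosome 19, 35745114 to 35747519 on GRCh38) stood at 1.59, 2.56 and 1.44 CPM in the control libraries, at 35.3, 17.3 and 14.2 CPM with LINC00996 and at 14.6, 12.4 and 13.1 CPM with AP001189.3. All 6 plasmid libraries lay far above the controls, and the 3 AP001189.3 libraries lay close together. The average log2 fold change was 3.22 (SE, the standard error, of 0.34, adjusted p = 0.000114 in edgeR's test), with 3.59 for LINC00996 and 2.85 for AP001189.3. PSENEN shares 56.5% of its exonic bases with the exons of other genes, among them U2AF1L4, and reads from overlapping genes cannot be told apart without strand. U2AF1L4 stood at group means of 2.80, 3.34 and 3.55 CPM and was not shared.

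The 300 bases around a start of PSENEN and of COX6A1, the respiratory gene with the largest change, are shown because these genes led the shared set and stayed in it without any single library. They come from RefSeq (GRCh38.p14, 250 bases before and 50 after a start, plus strand), and capitals mark motif matches.
PSENEN, chr19:35745401-35745700: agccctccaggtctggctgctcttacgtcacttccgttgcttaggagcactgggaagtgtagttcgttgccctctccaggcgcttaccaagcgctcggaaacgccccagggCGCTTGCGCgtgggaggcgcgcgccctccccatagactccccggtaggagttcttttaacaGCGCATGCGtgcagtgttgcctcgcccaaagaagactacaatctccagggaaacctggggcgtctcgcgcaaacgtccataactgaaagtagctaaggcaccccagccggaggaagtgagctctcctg
COX6A1, chr12:120437863-120438162: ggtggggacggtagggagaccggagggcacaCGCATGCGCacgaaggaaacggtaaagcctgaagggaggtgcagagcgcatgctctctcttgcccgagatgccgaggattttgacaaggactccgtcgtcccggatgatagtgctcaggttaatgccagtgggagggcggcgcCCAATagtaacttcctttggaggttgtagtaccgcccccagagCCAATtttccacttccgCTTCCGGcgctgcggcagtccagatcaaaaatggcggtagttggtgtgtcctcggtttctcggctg
The PSENEN window held 2 matches to the NRF1 site CGCNTGCGC, and the COX6A1 window 1 such match, 2 CCAAT boxes and 1 ETS site, CCGGAAG, on the minus strand. Of 17391 promoters in the table, 10.3% held the NRF1 site, 36.2% a CCAAT box and 13.2% the ETS site. The other motifs searched on both strands were the ISRE core GAAANNGAA, the kB core GGGANNTTC, the AP-1 site TGANTCA, CRE TGACGTCA, E-box CACGTG, SRE-1 TCACNCCAC, ARE core TGACNNNGC, AARE TGATGNAA, TATA box TATAAA and HRE core ACGTG, the last also inside the E-box, and none of these letters were in either window. A match describes letters, not a bound site. Only 116 of the 163 shared higher and 28 of the 48 shared lower genes had a promoter in the table, under the 80% asked of such a check, so a comparison of motif shares is void and none is given.

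Nuclear respiratory chain and ATP synthase genes gave 6 shared genes among 73 tested, all higher (8.22%, beside 0.984% of all genes). COX6A1, a subunit of cytochrome c oxidase, rose from 16.2, 11.8 and 9.04 CPM in the control libraries to 60.9, 50.9 and 43.4 CPM with LINC00996 and to 34.8, 40.8 and 39.6 CPM with AP001189.3. Its average log2 fold change was 1.85 (SE 0.16, adjusted p = 3.58e-06 in edgeR's test). ATP5MF, a subunit of the membrane part of ATP synthase, rose from 18.7, 15.1 and 10.6 CPM to 84.9, 55.7 and 44.2 CPM with LINC00996 and to 43.6, 45.3 and 37.3 CPM with AP001189.3. COX8A, another subunit of the same oxidase, rose from 32.8, 30.1 and 29.1 CPM to 124, 70.9 and 61.0 CPM and to 65.5, 63.4 and 66.0 CPM. In all 3 genes the plasmid libraries lay above the controls, and LINC00996 replicate 1 was the highest library. NDUFA1 and NDUFB3 of complex I and UQCRB of complex III completed the 6, with average log2 fold changes of 1.26, 0.88 and 0.75. The list as a whole behaved differently with each plasmid: 40 of its 73 members were called higher with LINC00996 (13.7% of all genes were) and 6 with AP001189.3 (2.08%), its median log2 fold change was 0.45 and 0.02, and 36 members were called higher in LINC00996 than in AP001189.3 (11.7%). With each library left out in turn, the count of shared members ran from 1 to 21.

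Of 13 protein genes of the mitochondrial chromosome, only MT-CO3, a core subunit of cytochrome c oxidase, was shared (7.69%, beside 0.984% of all genes). LINC00996 alone called 9 of the 13 higher (13.7% of all genes were). AP001189.3 alone called 1 higher (2.08% of all genes were) and 1 lower (0.562%). MT-CO3 stood at 3149, 3068 and 2582 CPM with the control plasmid, at 6857, 7766 and 7440.0 CPM with LINC00996 and at 3996, 4160 and 4125 CPM with AP001189.3. Its average log2 fold change of 0.90 (SE 0.07) had the smallest adjusted p of the shared higher genes (1.37e-06 in edgeR's test), and LINC00996 lay 0.85 above AP001189.3 on the log2 scale (adjusted p = 9.42e-07, edgeR). MT-CO3 is also 1 of the 28 genes that stayed shared without any library. The share of all counts on the mitochondrial chromosome was 5.26% to 5.66% in the control libraries, 6.68% to 7.18% with LINC00996 and 5.32% to 5.52% with AP001189.3.

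Mitochondrial tRNAs, which carry amino acids to the mitochondrial ribosome and are cut out of long polycistronic transcripts, gave 4 shared higher genes among 17 tested (23.5%, beside 0.984% of all genes), in a set described after its values were seen. The 4 lie in 2 places. MT-TC and MT-TY, the tRNAs for cysteine and tyrosine, are neighbours on the minus strand of the mitochondrial chromosome (5761 to 5826 and 5826 to 5891), and MT-TH and MT-TL2, for histidine and leucine, lie on the plus strand (12138 to 12206 and 12266 to 12336) with only MT-TS2 between them. Their sequences, from the GENCODE 29 transcripts on GRCh38, are shown with the anticodon in capitals because the calls fall into these 2 pairs.
MT-TC: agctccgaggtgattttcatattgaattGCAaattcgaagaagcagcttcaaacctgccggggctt
MT-TY: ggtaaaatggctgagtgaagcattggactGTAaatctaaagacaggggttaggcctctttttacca
MT-TH: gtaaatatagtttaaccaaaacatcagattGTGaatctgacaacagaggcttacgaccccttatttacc
MT-TL2: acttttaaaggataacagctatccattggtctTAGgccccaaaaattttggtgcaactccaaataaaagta
MT-TC rose from 52.9, 35.5 and 28.0 CPM in the control libraries to 137, 97.6 and 103 CPM with LINC00996 and to 139, 118 and 133 CPM with AP001189.3, an average log2 fold change of 1.64 (SE 0.18, adjusted p = 0.000171 in edgeR's test). MT-TY rose from 10.4, 6.11 and 2.65 CPM to 18.5, 32.1 and 32.7 CPM and to 40.6, 40.5 and 37.4 CPM. Both groups lay above the controls, with the higher mean in the AP001189.3 libraries, and the difference between the plasmids did not pass the test for either tRNA. The other pair was rare. MT-TH had 8, 3 and 1 counts with the control plasmid, 121, 43 and 69 with LINC00996 and 47, 35 and 26 with AP001189.3, and MT-TL2 had 2, 0 and 2, then 28, 16 and 20, then 21, 17 and 19 counts. Folds against so few control counts depend on the prior count and are not given. MT-TS2 between them had 2, 1 and 0 control counts, 36, 15 and 16 with LINC00996 and 5, 4 and 4 with AP001189.3, and passed only with LINC00996. MT-TH and MT-TL2 passed the filter on low counts only through the plasmid libraries, so nothing is read from the share of shared tRNAs. MT-TN, the next tRNA gene beside MT-TC on the same strand, had an average log2 fold change of -0.46 and was not shared. These libraries were made from poly(A) RNA in fragments much longer than a tRNA, so a count on a tRNA gene is not a measure of the mature tRNA.

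**Figure D3:**
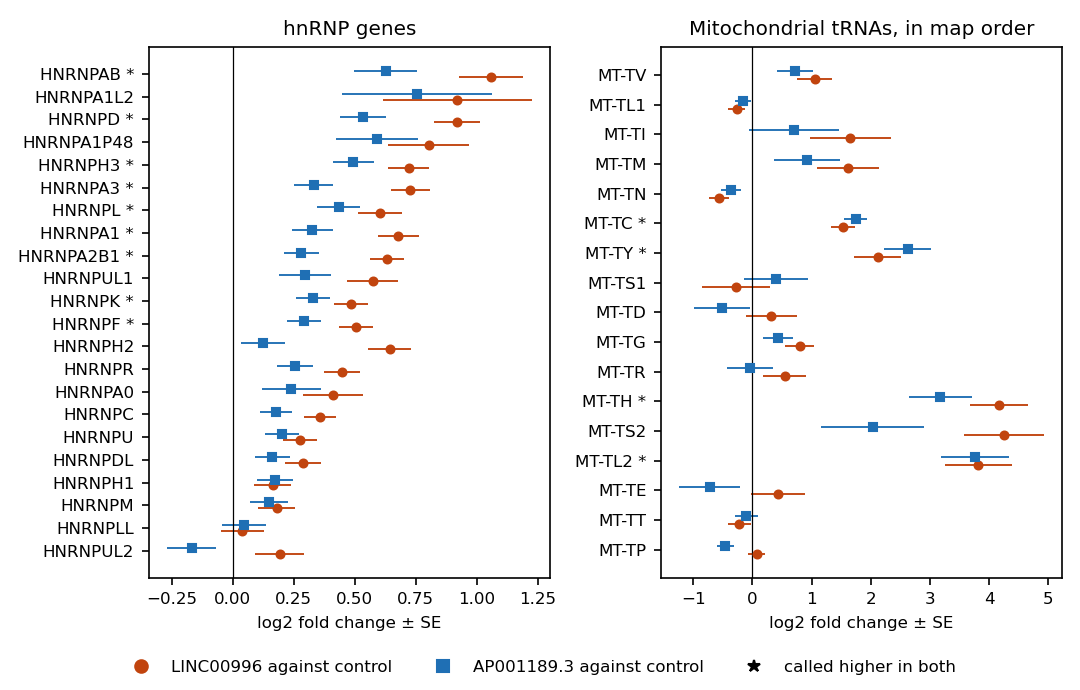
Log2 fold change against control with its standard error (x axis) for LINC00996 (circles) and AP001189.3 (squares), for 22 hnRNP genes and 17 mitochondrial tRNAs in map order from the top, with an asterisk for shared genes. All but 1 of the hnRNP genes lie above 0 with both plasmids, and the shared tRNAs fall into 2 places, with folds of the rare MT-TH, MT-TS2 and MT-TL2 resting on few control counts.

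Shared genes were also found among RNA-binding and splicing genes. Of 37 splicing factors and paraspeckle genes listed, 5 were shared and higher (13.5%, beside 0.984% of all genes) and none lower, with 0 to 11 as single libraries were left out. When all genes of the hnRNP family were then counted, after the first values were seen, 9 of 22 were shared and higher (40.9%, beside 0.984%) and none lower: HNRNPA1, HNRNPA2B1, HNRNPA3, HNRNPAB, HNRNPD, HNRNPF, HNRNPH3, HNRNPK and HNRNPL. Of the 9, HNRNPD was still shared in 8 and HNRNPH3 in 7 of the 9 fits with a library left out, and the others in 2 to 4. LINC00996 alone called 18 of the 22 higher (13.7% of all genes were) and AP001189.3 alone 9 (2.08%). Of the 22, 21 had log2 fold changes above 0 with both plasmids, and the medians were 0.54 with LINC00996 and 0.29 with AP001189.3. HNRNPAB rose from 79.6, 79.6 and 78.7 CPM in the control libraries to 214, 143 and 138 CPM with LINC00996 and to 120.3, 128 and 119 CPM with AP001189.3. HNRNPD, which binds AU-rich elements of mRNA, rose from 87.9, 88.8 and 80.9 CPM to 188, 149 and 150.4 CPM and to 125, 123 and 125 CPM, an average log2 fold change of 0.73 (SE 0.08, adjusted p = 3.8e-05 in edgeR's test). In both genes the groups did not overlap and LINC00996 replicate 1 was highest. PABPN1, which controls the length of nuclear poly(A) tails, rose from 22.4, 18.9 and 16.2 CPM to 84.5, 49.9 and 44.9 CPM and to 46.6, 46.1 and 41.2 CPM, and YBX1, an abundant mRNA packaging protein named after its values were seen, had an average log2 fold change of 0.85. The U1 snRNP protein SNRPA, the SF3a subunit SF3A2, the SF3b subunit SF3B4 and SNRNP35 of the minor spliceosome were also shared and higher, 4 of 28 SNRP and SF3 genes (14.3%, beside 0.984%) in a set formed after values were seen, and each stayed shared in only 2 to 5 of the 9 fits with a library left out. In that set the medians parted, with 0.32 for LINC00996 and -0.01 for AP001189.3.

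Among cytosolic ribosomal proteins, 6 of 79 were shared and higher (7.59%, beside 0.984% of all genes) and RPS15 was shared and lower (0.29% of all genes were). RPL22 stood at 51.1, 49.7 and 51.1 CPM in the control libraries, at 110.3, 120.3 and 114 CPM with LINC00996 and at 69.2, 79.1 and 74.2 CPM with AP001189.3, so the 3 groups did not overlap and AP001189.3 lay in between. RPL26 and RPS15A had average log2 fold changes of 1.25 and 1.01. RPS15 moved the other way, from 386, 402 and 508 CPM to 357, 229 and 221 CPM with LINC00996 and 259, 241 and 259.7 CPM with AP001189.3. Over the list, 52 members were called higher with LINC00996 (13.7% of all genes were) and 6 with AP001189.3 (2.08% of all genes were), the medians were 0.38 and 0.01, and leaving out single libraries moved the shared higher count between 3 and 21. Of 77 mitochondrial ribosomal proteins, MRPL12 was the only shared one (1.3%, near the 0.984% of all genes), and 33 were called higher with LINC00996. MRPL12, a stalk protein of the mitochondrial ribosome, rose from 3.95, 3.68 and 3.05 CPM to 31.4, 20.8 and 14.4 CPM with LINC00996 and to 16.6, 18.8 and 12.5 CPM with AP001189.3, an average log2 fold change of 2.40 (SE 0.25, adjusted p = 4.76e-05 in edgeR's test). It shares 68.2% of its exonic bases with AC139530.2, which had a mean of 0 CPM in each group.

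TAF10, a subunit of the TFIID and SAGA transcription complexes, rose from 4.71, 4.43 and 3.46 CPM in the control libraries to 29.9, 16.4 and 10.9 CPM with LINC00996 and to 17.6, 17.5 and 18.4 CPM with AP001189.3. Its average log2 fold change was 2.14 (SE 0.29, adjusted p = 0.000684 in edgeR's test). It shares 51.2% of its exonic bases with other genes, mainly ILK on the opposite strand, an integrin-linked kinase gene that was shared as well at 0.494 CPM in the control group and 2.55 and 1.84 CPM with the plasmids. The polymerase II subunits POLR2G and POLR2E, named after their values were seen, had average log2 fold changes of 0.72 and 0.68. PFDN6, a subunit of the prefoldin chaperone, had log2 fold changes of 1.71 with LINC00996 and 1.29 with AP001189.3, and HSPE1, the mitochondrial chaperonin partner of HSPD1, of 1.52 and 0.76. NUDT1, which removes oxidised nucleotides, rose from 6.42, 5.49 and 4.20 CPM to 27.6, 17.7 and 12.9 CPM and to 12.7, 11.7 and 13.2 CPM, and shares no exonic bases with another gene. EVA1B, TMEM141 and TFPT, a subunit of the INO80 chromatin remodeller, had 1.32, 1.23 and 1.17. TP53I3, a p53 target, rose from 16.7, 13.6 and 15.2 CPM to 51.2, 39.6 and 38.1 CPM and to 27.2, 29 and 28 CPM.

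Some shared higher genes were picked after their values were seen, so they stand for no group. Cofilin (CFL1), which severs actin filaments, rose from 284, 263 and 211 CPM in the control libraries to 614, 494 and 493 CPM with LINC00996 and to 449, 476 and 452 CPM with AP001189.3, an average log2 fold change of 0.97 (SE 0.10, adjusted p = 1.12e-05 in edgeR's test). The actin monomer binder TMSB10 and the GTPase RHOC had 0.86 and 0.83, and CAPG, LASP1 and COTL1 had 0.57, 0.48 and 0.40. The most abundant nuclear-encoded gene of the set was ALDH1A1, a retinaldehyde and aldehyde dehydrogenase that is high in A549, at 2883, 2928 and 2987 CPM with the control plasmid, 5587, 5983 and 5938 CPM with LINC00996 and 3469, 3803 and 3713 CPM with AP001189.3. The AP001189.3 libraries lay between the other groups without overlap, and the difference between the plasmids passed the test. The lncRNA HOXB-AS3 was the noncoding gene named by rule beside the tRNAs, at 4.94 CPM in the control group and 7.33 and 8.81 CPM with LINC00996 and AP001189.3, and its call in the average contrast was lost without control replicate 3.

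Further shared genes, named after their values were seen, fell outside these groups. LBH, BEX3, PEA15, VAMP2, VKORC1, FABP5 and APOBEC3B were among those that stayed shared and higher without any single library. LBH, a transcriptional cofactor of the WNT pathway, stood at 51.9, 50.2 and 54.0 CPM with the control plasmid, at 119, 99.9 and 100.3 CPM with LINC00996 and at 77.7, 78.1 and 73.8 CPM with AP001189.3. FABP5, a fatty acid carrier, stood at 14.3, 12.1 and 16.2 CPM, then 28.6, 29.3 and 27.6 CPM, then 21.2, 25.8 and 24.5 CPM. In both genes the 3 groups were separate and ordered control, AP001189.3, LINC00996, but for FABP5 the difference between the plasmids did not pass the test (adjusted p = 0.124, edgeR). A different order was seen for APOBEC3B, a cytidine deaminase that edits DNA, with 11.1, 11.3 and 10.9 CPM in the control libraries, 15.4, 14 and 15.5 CPM with LINC00996 and 16.7, 20.3 and 18.5 CPM with AP001189.3. VAMP2, a vesicle fusion protein, and HMGA1, a chromatin protein, also had the higher mean with AP001189.3, though the difference between the plasmids did not pass the test for APOBEC3B (adjusted p = 0.0658, edgeR) or HMGA1 (adjusted p = 0.162, edgeR). PARK7, which protects against oxidative stress, and NEDD8, a ubiquitin-like modifier, had average log2 fold changes of 0.79 and 1.28. The lysosomal protease CTSD and the lysosomal cholesterol carrier NPC2 had 0.50 and 0.45. PTHLH, a secreted hormone-like peptide, had 0.85 with each plasmid.

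Of the shared lower genes, MUC16 had the smallest adjusted p. MUC16 (chromosome 19, 8848844 to 8981342), a very large membrane mucin known as the tumour marker CA125, fell from 208, 201 and 183 CPM in the control libraries to 31.8, 29.2 and 30.9 CPM with LINC00996 and to 144, 93.1 and 103 CPM with AP001189.3. The 3 groups did not overlap. Its log2 fold change was -2.69 with LINC00996 and -0.80 with AP001189.3, with an average of -1.74 (SE 0.10, adjusted p = 9.34e-08 in edgeR's test), and it was among the 28 genes that stayed shared without any library. IGFBP1, a secreted binder of insulin-like growth factors, fell from 642, 636 and 614 CPM to 159, 181 and 190.4 CPM with LINC00996 and to 490.1, 383 and 408 CPM with AP001189.3. SLPI, a secreted inhibitor of neutrophil elastase, fell from 124, 112 and 136 CPM to 66.7, 50.6 and 52.5 CPM and to 88.9, 70.7 and 68.3 CPM. VTN, the adhesion protein vitronectin, fell from 82.3, 80.8 and 101 CPM to 49.6, 40.3 and 35.8 CPM and to 63.9, 58.3 and 56.1 CPM. In each of these 4 genes the fall was larger with LINC00996, and the difference between the plasmids passed the test. The prolactin-induced protein gene PIP and the scavenger receptor SCARA5 had average log2 fold changes of -0.58 and -0.56. CDKAL1, SLC46A3 and EIF5AL1 had -0.56, -0.63 and -0.68.

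PECAM1, an adhesion molecule of endothelium and platelets, fell from 7.36, 8.66 and 8.35 CPM to 2.47, 3.49 and 3.14 CPM with LINC00996 and to 5.15, 4.69 and 4.13 CPM with AP001189.3. The summed level of 5 endothelial markers moved with it, at 11.8 to 13.1 CPM with the control plasmid, 5.26 to 6.61 CPM with LINC00996 and 7.42 to 9.58 CPM with AP001189.3. PECAM1 and CDH5 made up nearly all of that sum. CDH5 was not called in either comparison, with means of 4.13 CPM with the control plasmid, 2.95 CPM with LINC00996 and 3.86 CPM with AP001189.3. VWF, KDR and TEK had at most 3 counts in every library, so these markers were near 0 in all groups.

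The other shared lower genes belonged to several pathways. AHCYL2, a relative of the enzyme that hydrolyses S-adenosylhomocysteine, fell from 189, 193 and 188 CPM to 60.0, 66.2 and 73.4 CPM with LINC00996 and to 133, 123 and 123 CPM with AP001189.3, an average log2 fold change of -1.05 (SE 0.07, adjusted p = 2.28e-07 in edgeR's test), and it stayed shared without any single library. MT2A, a metal-binding metallothionein, fell from 757, 761 and 939.6 CPM to 384, 393 and 400.4 CPM and to 658, 570.3 and 615 CPM. The retinoic acid receptor RARB stood at 20.3, 20.9 and 18.8 CPM in the control libraries, at 7.68, 10.2 and 13.3 CPM with LINC00996 and at 13.3, 11.9 and 12.9 CPM with AP001189.3. RDH10, the retinol dehydrogenase that starts the synthesis of retinoic acid, was also shared and lower, from 290.0, 279 and 285 CPM to 156, 183 and 178 CPM and to 239, 219 and 216 CPM. ALDH1A1, whose product oxidises the retinaldehyde that RDH10 makes, was higher with both plasmids as given above. ERN1, the endoplasmic reticulum stress sensor IRE1, and RPN2, a subunit of the N-glycosylation complex, had average log2 fold changes of -0.53 and -0.38, and the Golgi genes MIA2, GOLGA5 and ST3GAL5 had -0.47, -0.46 and -0.37. SYNE2, a nuclear envelope protein that links the nucleus to the cytoskeleton, stood at 244, 249 and 254 CPM in the control libraries, at 181, 193 and 199.5 CPM with LINC00996 and at 203, 183 and 195 CPM with AP001189.3, so that the plasmid groups overlapped each other and lay below control. The mRNA decapping cofactor DCP1B and the mitochondrial pyruvate carboxylase PC had average log2 fold changes of -0.51 and -0.46. RDH10, ERN1, RPN2, the Golgi genes, SYNE2, DCP1B, PC and PIP were named after their values were seen.

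Processed pseudogenes, intronless copies of mRNAs in the genome, were 12 of the 48 shared lower genes and 10 of the 163 shared higher genes. Of 414 tested these were 2.9% and 2.42%, beside 0.29% and 0.984% of all genes, but 4 of the 12 and 1 of the 10 passed the filter on low counts only through the libraries where they were high, so nothing is read from these shares. PFN1P1, a copy of the profilin gene PFN1, fell from 4.48, 6.05 and 5.76 CPM to 1.92, 3.30 and 2.71 CPM with LINC00996 and to 2.43, 2.28 and 1.34 CPM with AP001189.3. PFN1 itself had log2 fold changes of 0.91 and 0.51. FTH1P23, a copy of the ferritin heavy chain gene FTH1, fell from 4.54, 4.30 and 5.64 CPM to 1.15, 1.33 and 1.90 CPM and to 2.66, 1.5 and 1.46 CPM, while FTH1 had log2 fold changes of 0.02 and 0.36. LDHAP3, a copy of LDHA, had 13, 14 and 20 counts with the control plasmid, 0, 2 and 2 with LINC00996 and 2, 2 and 3 with AP001189.3, and LDHA had log2 fold changes of -0.01 and -0.01. These 3 copies were picked after their values were seen. Over the 17 pairs of a shared copy and a tested parent, no parent was shared. The parents of all 9 higher copies had log2 fold changes above 0 with LINC00996, and 5 of them with AP001189.3, as had 6 and 4 of the parents of the 8 lower copies. Reads from a parent and its copy can be placed on either, so the levels of such copies are uncertain.

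Among the pathway lists, cytosolic ribosomal proteins alone had a shared lower member. Of 60 interferon-stimulated genes, 23 were called lower in the average contrast (7.82% of all genes were), but none was shared: 51 were called lower with LINC00996 (14.4% of all genes were), 13 were called higher (2.08%) and none lower (0.562%) with AP001189.3, and 11 were called in opposite directions. Between the plasmids, 54 of the 60 were lower with LINC00996 than with AP001189.3 (13.8% of all genes were). The same held for 39 cytokines and chemokines, with 20 lower in the average, 30 lower with LINC00996, 3 higher and 1 lower with AP001189.3 and none shared, and for 29 NF-kB pathway genes, with 15, 22, 3, 0 and none. Of 17 nucleic acid sensors and adaptors, 6 were lower in the average and none was shared. Of 23 antigen presentation genes, 12 were lower in the average and only PSMB10, an immunoproteasome subunit, was shared. It was higher, at 12, 11.2 and 11.1 CPM in the control libraries, 21.7, 17 and 12 CPM with LINC00996 and 34.3, 32.4 and 31.1 CPM with AP001189.3, and the rise was larger with AP001189.3 by 0.95 on the log2 scale. LINC00996 replicate 3 lay at the level of control replicate 1. Of 50 DNA replication and mitosis genes, 22 were higher in the average (7.32% of all genes were), 40 with LINC00996 (13.7%) and 2 with AP001189.3 (2.08%), none was lower or opposite, and both of the latter 2 were shared, with 0 to 8 shared as single libraries were left out. They were ZWINT, a kinetochore protein, at 29.9, 30.4 and 27.2 CPM in the control libraries, 74.5, 64.5 and 64.3 CPM with LINC00996 and 36.8, 38.6 and 41.8 CPM with AP001189.3, and the mitotic kinase AURKB, with an average log2 fold change of 0.58. Of 33 glycolysis and hypoxia genes, 2 were shared and higher (6.06%, beside 0.984% of all genes, and 0 to 3 as single libraries were left out), the glycolytic regulator PFKFB3 and the mTORC1 inhibitor DDIT4, with average log2 fold changes of 0.43 and 0.60. Shared and higher were also 1 each of 25 heat shock, 30 p53, 24 YAP and 42 extracellular matrix genes (2.38% to 4.17%), namely HSPE1, TP53I3, GADD45B and COL5A1. Cholesterol synthesis, unfolded protein response, epithelial-mesenchymal, AP-1, proteasome, histone and small nucleolar RNA host gene lists, and the 8 tested lncRNAs of the study's risk models, had none.

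**Figure D4:**
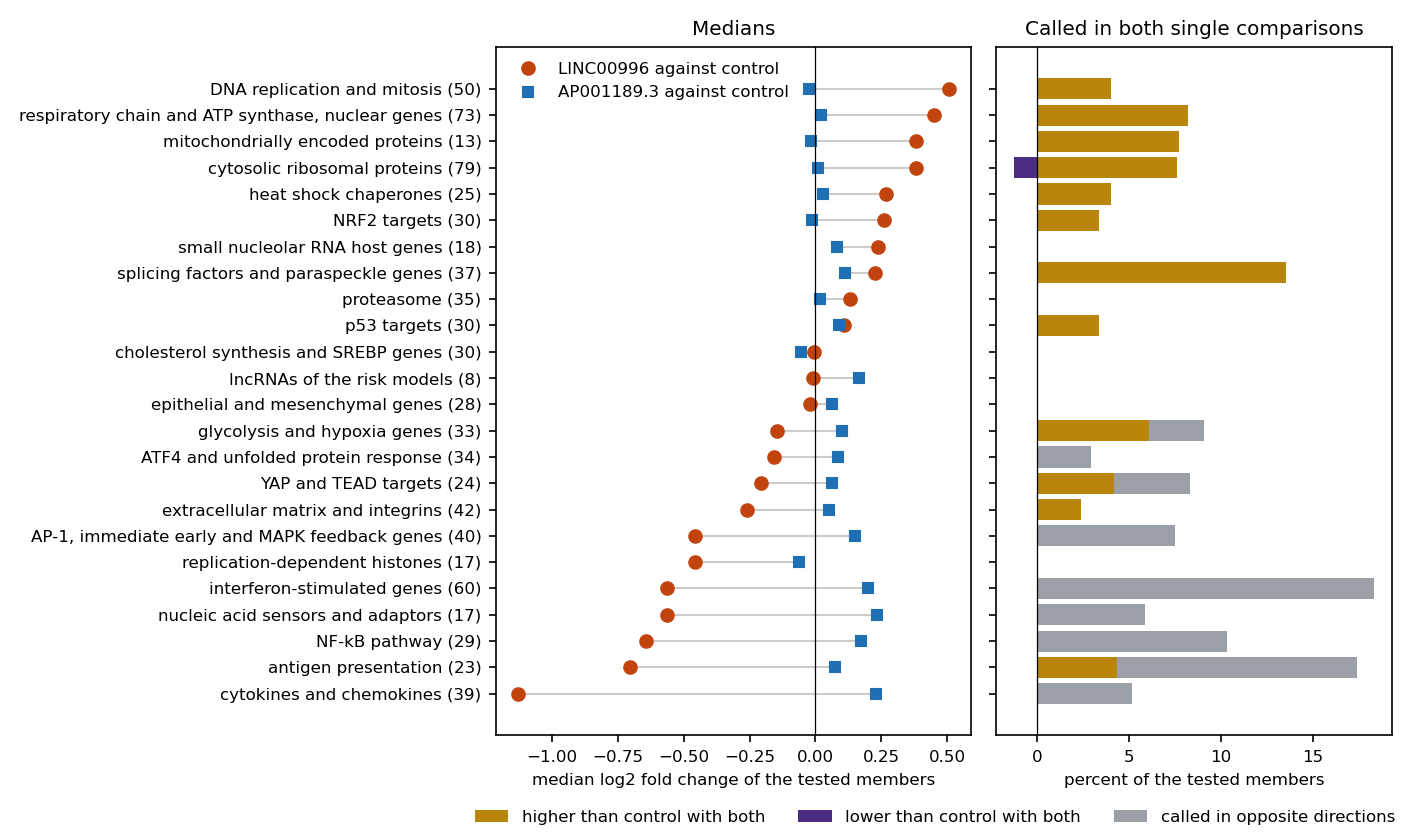
For the 24 pathway lists, with the number of tested members in brackets, the median log2 fold change against control with LINC00996 (circles) and AP001189.3 (squares) on the left, and on the right the percent of members called in both single comparisons. Both comparisons share the control libraries. The immune lists have medians below 0 with LINC00996 and above 0 with AP001189.3, and the shares called higher with both rest on few genes that vary as single libraries are left out.

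Genes called in opposite directions numbered 83 (0.501% of those tested), of which 80 were lower with LINC00996 and higher with AP001189.3. This count ran from 18 without control replicate 2 to 585 without LINC00996 replicate 1. The interferon lambda genes, antiviral cytokines of epithelium, led them. IFNL1 stood at 8.48, 7.17 and 9.33 CPM in the control libraries, at 2.96, 1.40 and 1.46 CPM with LINC00996 and at 14.9, 20.9 and 19.4 CPM with AP001189.3. Its average log2 fold change was -0.47 (SE 0.19) and did not pass the test (adjusted p = 0.0983, edgeR), though each single comparison did. IFNL2 and IFNL3 behaved likewise, with -1.60 and -1.57 for LINC00996 and 1.41 and 1.33 for AP001189.3. The 3 genes that were higher with LINC00996 and lower with AP001189.3 were ANXA13, DDIT4L and ARHGAP18.

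The size of the shared changes was compared between the plasmids by a contrast that holds no control mean, though the control libraries entered the same fit and its estimate of the spread. LINC00996 against AP001189.3 called 4218 genes (25.5%) and 53 of the 211 shared genes (25.1%), a share near that of all genes. Of the 41 shared higher genes among them, 38 lay further from control with LINC00996 and 3 with AP001189.3, and of the 12 shared lower genes 9 and 3. For the others no difference was called, which does not show that the plasmids acted alike. PSENEN, TAF10 and COX8A were examples, with differences of 0.74, 0.10 and 0.39 on the log2 scale.

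The shared higher genes had a median transcript length of 1750 bases, against 3017.5 over all genes tested and 2283.5 in the shared lower genes, and 27.6% of them had transcripts of at most 1000 bases, against 9.76% of all genes and 31.2% of the shared lower genes. Among genes that averaged 5 CPM or more, the share called higher with both plasmids fell from 9.59% at up to 700 bases to 2.73% over 1000 and up to 2000 bases and 0.184% over 5000 bases. The control libraries differed from the plasmid libraries in their relation to transcript length as given above, and with an offset for transcript length 189 genes were shared and higher, 140 of them among the 163, and 82 were shared and lower, 44 of them among the 48. With an offset for GC content the numbers were 494 and 395, which held 151 of the 163 and 44 of the 48. Of the shared higher genes, 39.9% had at least 10% of their exonic bases inside exons of another gene, against 20.6% of all genes and 4.17% of the shared lower genes. Of the 12 leading protein-coding genes higher with both plasmids, 10 had such an overlap and all 12 had transcripts under 3000 bases, and of the 12 leading lower genes 1 and 4. Restricted to genes with less overlap, the fit called 112 genes shared and higher, among them all 98 of the 163 that were still tested. An annotated pseudogene copy was found for 23.9% of the shared higher genes, against 9.02% of all genes.

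**Figure D5:**
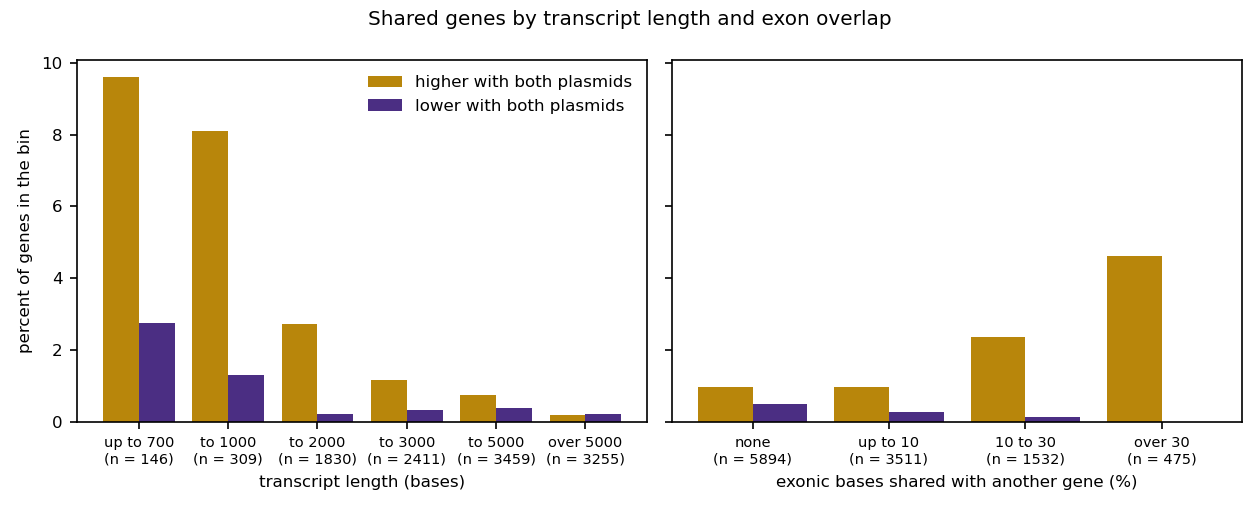
Percent of genes (y axis) that were shared and higher (ochre) or shared and lower (purple) than control, by transcript length on the left and by the percent of exonic bases inside exons of another gene on the right, among genes that averaged 5 CPM or more, with the number of genes in each bin below it. The share of higher genes falls from 9.59% to 0.184% with length and rises from 0.967% to 4.63% with overlap.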

How the data were processed

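RNA of 9 A549 libraries was measured. The values deposited by the authors are raw counts, not normalized. HISAT2 2.0.5 aligned the reads and featureCounts 1.5.0-p3 summed them over genes, per the labels and the study's methods. The strand setting is not given in the sources used here. Gene coordinates in the file equal GENCODE 29 (GRCh38) for all 58735 genes. The FPKM files were not used, and gene length was used only as an offset. All counts were fitted in 1 model with edgeR 4.0.16 in R 4.3.3 (3 groups, filterByExpr, TMM, robust quasi-likelihood test, Benjamini-Hochberg adjustment over 16560 genes), with contrasts for the equally weighted average of the plasmids, for each plasmid and between them. The alternative tool was DESeq2 1.42.0. CPM values use TMM factors. Transcript length and GC come from GENCODE 29. Depth (15272450 to 18125447 counts) sets the precision, and floors cover counting error only. The procedure was tested on simulated data. Correlations of deviations from group means ran from -0.0204 to 0.149 for libraries with the same replicate number. For different numbers they ran from -0.123 to 0.0449. The main fit held no replicate term, whether the numbers stand for pairs is not stated, and a fit with a replicate block is given below.

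Members and lists were chosen with earlier results of these data known. By rule, the text could name the 12 protein-coding genes in each direction with the largest smaller change among shared genes without overlap and at 5 CPM or more, 3 noncoding genes, the 5 smallest adjusted p, up to 3 shared members of each list, and the leading opposite genes. Other genes are said to be named after their values were seen, or stand in a family count. Exon overlap counted bases on either strand. Some genes that the rule would name are not reported here.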

Additional observations from a re-analysis of the deposited data

Results flagged for a closer look

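The following results differed between the plasmids by edgeR's test of LINC00996 against AP001189.3, a contrast that holds no control mean but was fitted together with the control libraries. Among the 211 shared genes, 53 were called between the plasmids, and 83 genes were called in opposite directions against control. On the log2 scale, LINC00996 lay above AP001189.3 by 0.63 for NUDT1, 0.85 for MT-CO3, 0.63 for RPL22, 0.67 for ALDH1A1, 0.76 for HSPE1, 0.70 for NDUFB3, 0.53 for UQCRB, 0.36 for RPS15A, 0.80 for ZWINT, 0.33 for AURKB, 0.62 for TP53I3, 0.39 for HNRNPD, 0.35 for HNRNPA2B1 and 0.35 for HNRNPA1. Each of these was higher than control with both plasmids. LINC00996 lay below AP001189.3, with differences of -0.62 for PECAM1, -1.89 for MUC16, -0.42 for SLPI, -0.93 for AHCYL2, -0.50 for VTN, -1.27 for IGFBP1 and -0.65 for MT2A, all of which were lower than control with both. PSMB10 was higher with both, and its difference was -0.95. Of the genes called in opposite directions, IFNL2, IFNL3 and IFNL1 had differences of -3.01, -2.90 and -3.23, and ANXA13, DDIT4L and ARHGAP18 of 1.02, 0.85 and 0.76.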

How the results depend on the processing

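Counts moved with the processing. DESeq2 gave 433 shared genes (321 higher, 112 lower), 901 calls with AP001189.3 and 143 opposite calls. Without a filter on low counts these were 523 (413, 110), 1052 and 142. The replicate block, whose numbers share no stated source, gave 495 (368, 127), 1028 and 163. Fits on 6 libraries each gave 914 (580, 334), 3180 and 282. The GC offset gave 889 (494, 395), 1724 and 320, and 4322 calls for the average (1983 higher, 2339 lower). The transcript length offset gave 82 shared lower genes. The 2-group fit gave 64 average calls (52, 12). At an adjusted p under 0.01 the average had 1104 calls (505, 599), LINC00996 2806, AP001189.3 104, the difference 2525, shared genes 48 (39, 9) and opposite calls 24. At an adjusted p under 0.05 and a log2 change of 1 or more these were 257 (136, 121), 843, 65, 722, 37 (29, 8) and 4. Adjusting the larger p gave 90 shared (73, 17) and 39 opposite.

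With 1 library left out, ranges were 1151 to 4191 for the average (514 to 1948 higher, 637 to 2243 lower), 3373 to 5792 for LINC00996, 76 to 3291 for AP001189.3, 2921 to 6405 between the plasmids, 35 to 1157 for shared genes (28 to 670 higher, 7 to 487 lower) and 18 to 585 for opposite calls. The other alternatives stayed within 1.5 times. The average log2 fold changes of named genes stayed on the same side of the threshold in 1193 of the recomputed cases, lost the call in 53, of which 28 were in the 2-group fit and 24 under the fold threshold, and gained it in 5, all for IFNL1. None reversed a called direction, which could not occur where only the threshold changed. MT-TH, MT-TL2, MT-TS2, LDHAP3 and ILK rest on few counts, which limits their folds.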
